A study of Mus musculus with 18 samples.

Results

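mmu-miR-143-3p and mmu-miR-145a-5p, written here without the species prefix, are the main mature miRNAs of a pair of hairpins that lie side by side in the mouse genome. They were chosen by name, with no measured value in the rule, but with earlier results of these data known. They are 2 of the 2042 miRNA names listed, of which 1604 had a read. Both were followed through 18 small RNA libraries of C2C12, an established mouse myoblast line that fuses into myotubes when serum is lowered. The libraries form 6 groups of 3. In both the undifferentiated state and after 7 days of myogenic differentiation, small RNA was read from the cell extract (input), from what the MRTF-A 3'UTR held back as bait, and from what an MS2 control held back. Growth medium held 10% fetal calf serum and differentiation medium 2% horse serum. The treatment field describes the horse serum for undifferentiated samples too, and the state here follows the differentiation field and titles. All groups share the same line, and no genetic change is listed. Whether replicate libraries stem from separate cultures is not said, so each p-value covers library-to-library spread that may be technical. The trapping method, miTRAP, fixes an RNA with MS2 hairpins to a resin, passes cell extract over it, and elutes the small RNAs that remain.

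As background, the miR-143 and miR-145 hairpins are processed from a shared primary transcript. In smooth muscle, its transcription is driven by serum response factor (SRF), a DNA-binding factor, with the coactivators myocardin and the myocardin-related transcription factors. MRTF-A, encoded by Mrtfa, is one of these coactivators and moves into the nucleus when monomeric actin falls. Both miRNAs are known for promoting the contractile state of vascular smooth muscle and are found widely in mesenchymal cells. C2C12 is of the skeletal lineage, so the smooth muscle role is background to these libraries and was not measured in them. The comparisons ask how abundant the pair was before and after differentiation, and whether the 3'UTR of the SRF coactivator retained either miRNA.

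In GRCm38 with GENCODE vM21, Mir143 lies on the minus strand of chr18:61649196-61649258 and Mir145a on the same strand at chr18:61647825-61647894. The hairpins are 1301 bases apart. RefSeq places both within Carmn, a long noncoding RNA gene at chr18:61645878-61665538. Mrtfa lies on another chromosome, on the minus strand of chr15:81012281-81190757.

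Whole reads were recovered from the deposited values, and inputs held 294112 to 860828 of them, MRTF-A eluates 107165 to 544504 and MS2 eluates 15562 to 39695. CPM here means reads scaled by the authors to an effective library size, so a read was worth 1.66 CPM in the deepest library and 34.3 CPM where it was worth most. The authors' scaling factors lay between 0.341 and 0.634 for the MRTF-A bait but between 1.24 and 2.37 for the MS2 control, so the scaling moves with the kind of library. For that reason shares of recovered reads, which use no factor, are given beside CPM. A share in turn falls when other miRNAs take more of a library. The MS2 libraries were of 2 kinds by reads on human-named miRNAs, at 0.0900 to 0.115% in 3 libraries and 0.755 to 0.930% in the other 3. For miR-143-3p on the deposited scaling, bait against control and the bait effect between states are also given for each kind. Other results that use these libraries are not. The letters A, B and C number the libraries of each group and tie no library of one group to one of another. Intervals and limits on counts cover counting error only. Adjusted p-values come from limma, with Benjamini-Hochberg adjustment over the whole table tested, where no other tool is named. Fold changes are on the log2(CPM + 10) scale, where those of low miRNAs come out too small.

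miR-143-3p was among the most abundant miRNAs of these cells by reads. In such bulk RNA, fewer cells with a miRNA and less of it per cell cannot be told apart. In undifferentiated input it was at 27193, 28009 and 27802 CPM in libraries A, B and C, a mean of 27668 ± 424 (SD, n = 3), and ranked 6th in each library. In differentiated input it was at 48850, 52760 and 23079 CPM, a mean of 41563 ± 16127 (SD, n = 3), with ranks 4, 6 and 7. Libraries A and B lay above all undifferentiated inputs and library C below all of them, so the groups overlapped. Behind these values stood 8930 to 16782 reads in an undifferentiated and 10731 to 28080 in a differentiated library. By group mean it ranked 7th in undifferentiated and 6th in differentiated input. Its neighbours in mean level were miR-22-3p, at 29067 ± 7095 CPM, and miR-6241 just above and miR-30a-5p, at 19871 ± 5738 CPM, and miR-221-3p just below in undifferentiated input. In differentiated input, miR-6241 and miR-378a-3p stood just above, and miR-133a-3p, a muscle miRNA, just below at 40632 ± 9089 CPM, followed by let-7f-5p.

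miR-145a-5p was present in all 6 inputs at far fewer reads. Undifferentiated libraries held 58, 40 and 151 reads, equal to 177, 111 and 250 CPM, with a mean of 179 ± 69.5 (SD, n = 3). Differentiated libraries held 78, 82 and 57 reads, equal to 143, 154 and 123 CPM, with a mean of 140 ± 16.0 (SD, n = 3). All 3 differentiated values fell inside the undifferentiated range. By mean CPM it ranked 150th in undifferentiated and 127th in differentiated input, among names such as miR-345-5p and let-7f-2-3p in the first and miR-5128 and miR-21c in the second.

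**Figure D1:**
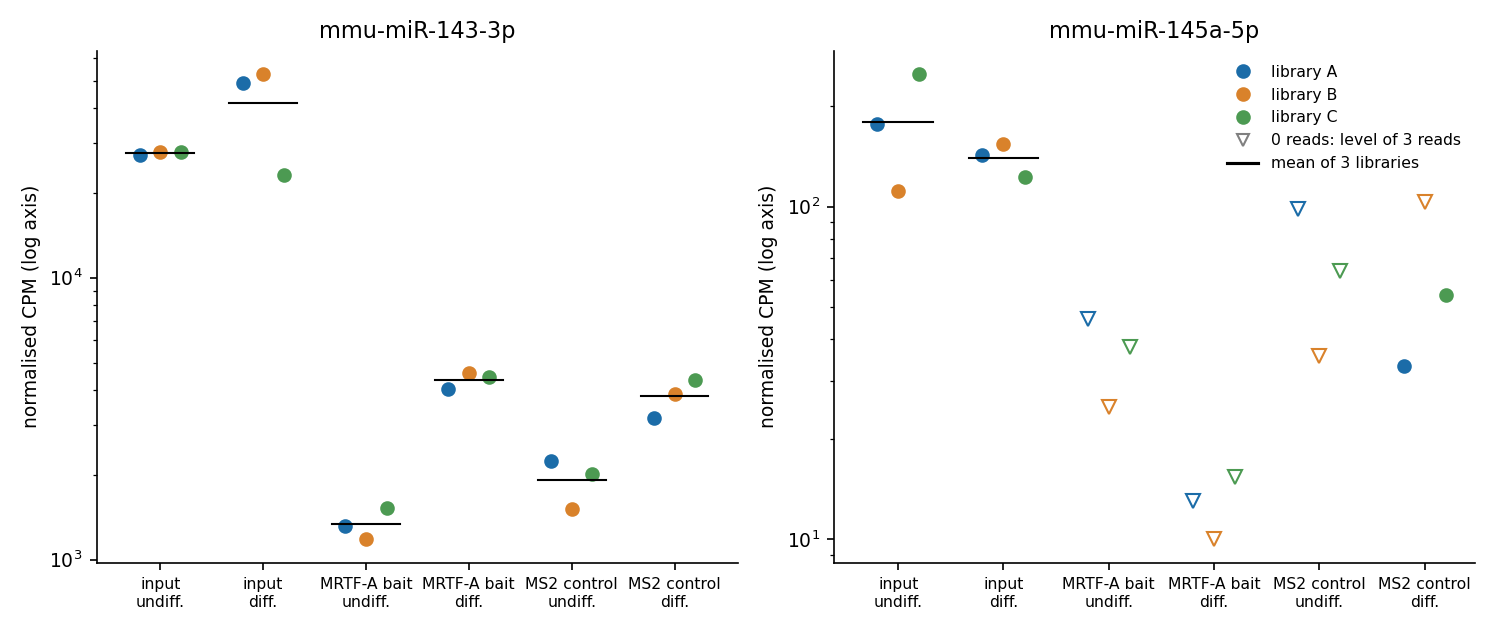
Normalised CPM (log axis) of miR-143-3p, left, and miR-145a-5p, right, in each of the 18 libraries, by group. Dots are libraries, horizontal lines the mean of 3 libraries where all have reads, and open triangles libraries with 0 reads, drawn at the level that 3 reads would give. miR-143-3p lies between 1180 and 52760 CPM in all 18, while miR-145a-5p has reads in the 6 inputs and in 2 of the 12 eluates.

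Within a single input library the pair can be compared with no scaling. miR-143-3p had 154, 252 and 111 reads for each read of miR-145a-5p in undifferentiated libraries and 341, 342 and 188 in differentiated ones. The geometric means were 163 and 280, and the groups overlapped between library B of the first and library C of the second (2-sided exact permutation test, p = 0.2, where 0.1 is the smallest p that 3 against 3 allows). This is a ratio of reads, since adapter ligation and amplification differ between miRNAs, and it is no ratio of molecules.

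Each hairpin gives a second mature arm. miR-143-5p had 3, 15 and 16 reads in undifferentiated and 19, 26 and 12 in differentiated inputs, so miR-143-3p outnumbered it by 672 to 2977 reads to 1 and by 894 to 1400 reads to 1 (exact permutation test, p = 0.9). For miR-145a the arms were much closer. miR-145a-3p had 19, 18 and 54 reads in undifferentiated and 45, 47 and 53 in differentiated inputs. miR-145a-5p per miR-145a-3p was 3.05, 2.22 and 2.80 in undifferentiated and 1.73, 1.74 and 1.08 in differentiated libraries. These ranges did not overlap, with geometric means of 2.67 and 1.48, and the exact permutation p of 0.1 is the smallest possible. The 3 ratios and the 6 comparisons of shares given below are a family of 9 exact tests, in which a p of 0.1 becomes 0.15 after Benjamini-Hochberg adjustment, 0.2 becomes 0.257, 0.6 becomes 0.675 and 0.9 stays 0.9. miR-145b, a separately named miRNA, had 1 undifferentiated and 3 differentiated input reads, and how reads that match several names were counted is not given in the sources used here.

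**Figure D2:**
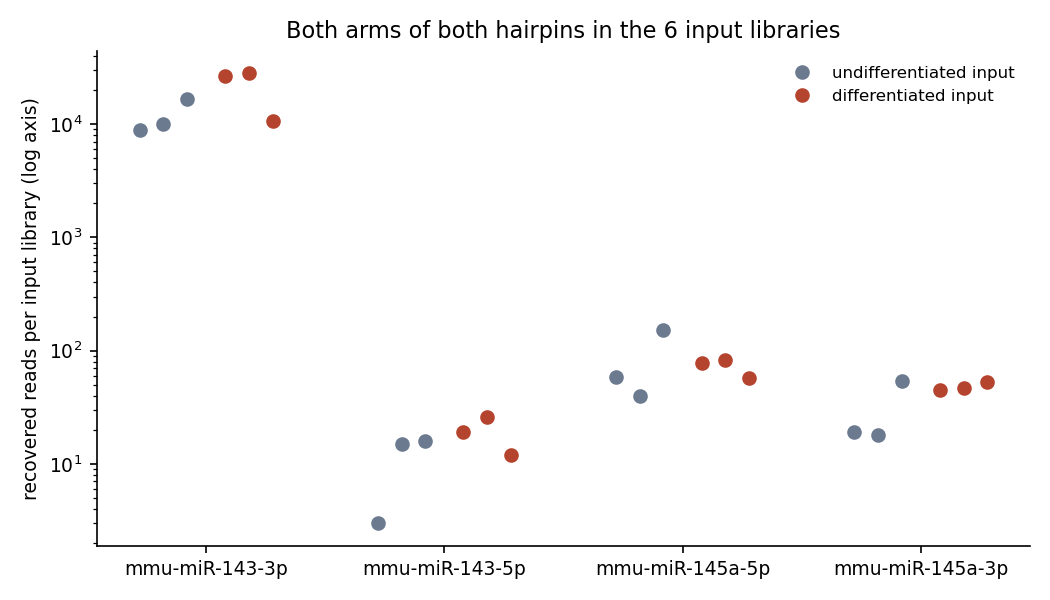
Recovered reads (log axis) of both arms of each hairpin in the 3 undifferentiated (grey) and 3 differentiated (red) input libraries, 1 dot per library in the order A, B, C. miR-143-3p lies at 8930 to 28080 reads, miR-143-5p at 3 to 26, and the arms of miR-145a within 18 to 151.

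With differentiation, neither miRNA passed the test on the deposited scaling. miR-143-3p had a log2 fold change of 0.50 ± 0.37 (SE, 95% interval -0.30 to 1.29, adjusted p = 0.260 with limma), and miR-145a-5p one of -0.27 ± 0.36 (-1.05 to 0.51, adjusted p = 0.527 with limma). In this comparison 62.3% of the 313 miRNAs tested passed in either direction and 16.0% as higher, with a median of -0.64, so miR-143-3p stood 1.13 above the median and above 77.3% of all tested. In the authors' deposited table the log2 fold changes were 0.59 (FDR 0.421) and -0.36 (FDR 1).

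The call for miR-143-3p turned on the scaling. Its log2 fold change was 1.20 with TMM factors of the 6 inputs (limma, adjusted p = 0.00419), 1.01 with library totals (limma, adjusted p = 0.0182) and 1.24 with DESeq2 (adjusted p = 0.000678). The same scalings moved the median of all tested, to -0.06 with the TMM factors and -0.24 with library totals. Relative to the median miR-143-3p lay at 0.94 to 1.37 under 8 scalings, tests and pseudocounts, all with the filter. Without a filter it was at 0.50 against a median of -0.07, a smaller gap. One library also decided the call. Without differentiated input C the value on the deposited scaling was 0.88 (limma, adjusted p = 0.0363). By share of reads, miR-143-3p took 3.04, 2.87 and 1.95% of undifferentiated and 6.64, 6.07 and 3.42% of differentiated libraries. These did not overlap, at 2.62 ± 0.584% and 5.37 ± 1.72% (SD, n = 3), a 2.05-fold difference with the smallest possible exact permutation p of 0.1. For miR-145a-5p the shares were 0.0197, 0.0114 and 0.0175% against 0.0195, 0.0177 and 0.0181%, which overlapped (exact permutation p = 0.6). Its sign also changed with the scaling, to 0.40 with the TMM factors of the inputs (limma, adjusted p = 0.216), and it passed under none of the 8 other settings.

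The eluates held far less of both. With the MRTF-A bait, miR-143-3p was at 1319, 1180 and 1525 CPM in undifferentiated cells, with a mean of 1341 ± 174 (SD, n = 3), and at 4020, 4604 and 4433 CPM in differentiated cells, with a mean of 4352 ± 301 (SD, n = 3). Every bait library lay below every input. The mean input was 20.6 times the mean bait eluate in undifferentiated and 9.55 times in differentiated cells. The log2 fold changes, bait over input, were -4.36 ± 0.29 (limma, adjusted p = 1.45e-09) and -3.16 ± 0.29 (limma, adjusted p = 7.27e-08). As background, 45.2% of 305 miRNAs were lower with the bait in undifferentiated and 30.8% in differentiated cells, so a lower level is common here. miR-143-3p stood at the 10.8th and 13.4th percentile of all tested, 3.33 and 3.02 below medians of -1.04 and -0.14. It was lower under all 8 other settings, at -5.28 to -3.08 and -4.35 to -3.15. The authors' deposited table had -4.37 and -3.26 for the same contrasts.

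miR-145a-5p had 0 reads in all 6 MRTF-A eluates. This is 0 of 600932 reads pooled over undifferentiated and 0 of 1264561 over differentiated libraries, which allows shares of up to 0.000499% and 0.000237%. Set against 3 reads in each eluate library, the input was at least 4.95-fold higher than the bait eluate in undifferentiated and at least 10.9-fold higher in differentiated cells. limma called both lower (adjusted p = 1.53e-06 and 3.41e-06), against the same background of 45.2% and 30.8%, but its fitted sizes depend on the pseudocount for a group at 0. Had miR-145a-5p kept the eluate to input ratio of miR-143-3p, it would have had 2.30 reads in the undifferentiated bait libraries together and 10.6 in the differentiated ones. The first number is under the 3 reads that a count of 0 allows, so a difference between the pair was not detectable at this depth. The second is above them. In the second arm the counts were 2 and 2 reads for miR-145a-3p, and 0 and 18 for miR-143-5p, in undifferentiated and differentiated bait eluates.

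The MS2 control eluates also held miR-143-3p, at 2232, 1519 and 2006 CPM in undifferentiated cells, with a mean of 1919 ± 364 (SD, n = 3), and at 3188, 3879 and 4333 CPM in differentiated cells, with a mean of 3800 ± 577 (SD, n = 3). The input mean was 14.4 and 10.9 times these. miR-145a-5p had 0 of 84591 reads in the undifferentiated control, which allows up to 0.00355%, and 1, 0 and 2 reads in differentiated libraries A, B and C. Its input was at least 2.72-fold above the undifferentiated control, and in differentiated cells the ratio was 4.51 (95% exact binomial counting interval 1.52 to 22.0, on 217 and 3 pooled reads). The control libraries are too shallow to place miR-145a-5p further. At the ratio of miR-143-3p it would have had 2.01 and 1.23 reads there.

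Whether the bait retained miR-143-3p over the control is the comparison the trapping was built for, and on the deposited scaling it showed no call in either state. In undifferentiated cells the groups overlapped by bait library C and control library B, at 1525 and 1519 CPM, and the log2 fold change was -0.50 ± 0.25 (95% interval -1.05 to 0.04, limma, adjusted p = 0.0971). In differentiated cells control library C lay within the bait range, and the log2 fold change was 0.20 ± 0.25 (-0.34 to 0.75, limma, adjusted p = 0.466). Calls were common, at 60.4% of 169 miRNAs in undifferentiated and 79.3% in differentiated cells, with 43.2% and 57.4% called higher with the bait. The medians were 1.16 and 2.37, so miR-143-3p lay 1.66 and 2.16 below them, above 32.5% and 33.1% of all tested. In the authors' deposited table the values were -0.51 and 0.19, both with an FDR of 1. With control libraries of low human-named share alone the values were -0.39 and 0.00, and with those of high share -0.74 and 0.30, none past the threshold in limma. High share in undifferentiated and low share in differentiated cells each left 1 control library, which is assumed to vary like the other groups. miR-145a-5p did not pass the filter for this comparison. In differentiated cells it had 0 reads in the bait and 3 in the control libraries.

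With 5 other scalings or tests, miR-143-3p was lower with the bait than with the control in both states. The edgeR fit used TMM factors again and DESeq2 its own size factors, so the 5 are not independent. Other pseudocounts and no filter left the deposited scaling's signs as they were. In undifferentiated cells the log2 fold changes were -0.96 with TMM factors of the 12 eluates, -0.93 with RLE factors, -2.39 with library totals, -0.97 with edgeR and -0.92 with DESeq2 (adjusted p = 0.000214 to 0.00834). In differentiated cells the sign turned, to -0.70, -0.59, -1.24, -0.69 and -0.59 in the same order (adjusted p = 0.0114 to 0.0400). miR-143-3p lay below the median of all tested under 8 scalings, tests and pseudocounts, all with the filter. It stood at -2.14 to -1.20 and at -2.64 to -1.43 relative to that median. Without a filter, undifferentiated cells gave -0.50 against a median of 0. Differentiated cells gave 0.20 against 0.14, so there miR-143-3p lay slightly above the median. Shares of reads separated the groups fully. In undifferentiated cells they were 0.0803, 0.0403 and 0.0858% with the bait and 0.331, 0.322 and 0.386% with the control, 5.04-fold higher in the control. In differentiated cells they were 0.223, 0.254 and 0.281% with the bait and 0.425, 0.482 and 1.03% with the control, 2.55-fold higher in the control. Each of these exact permutation tests gave p = 0.1, the smallest possible. None of these settings called miR-143-3p higher with the MRTF-A bait.

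**Figure D3:**
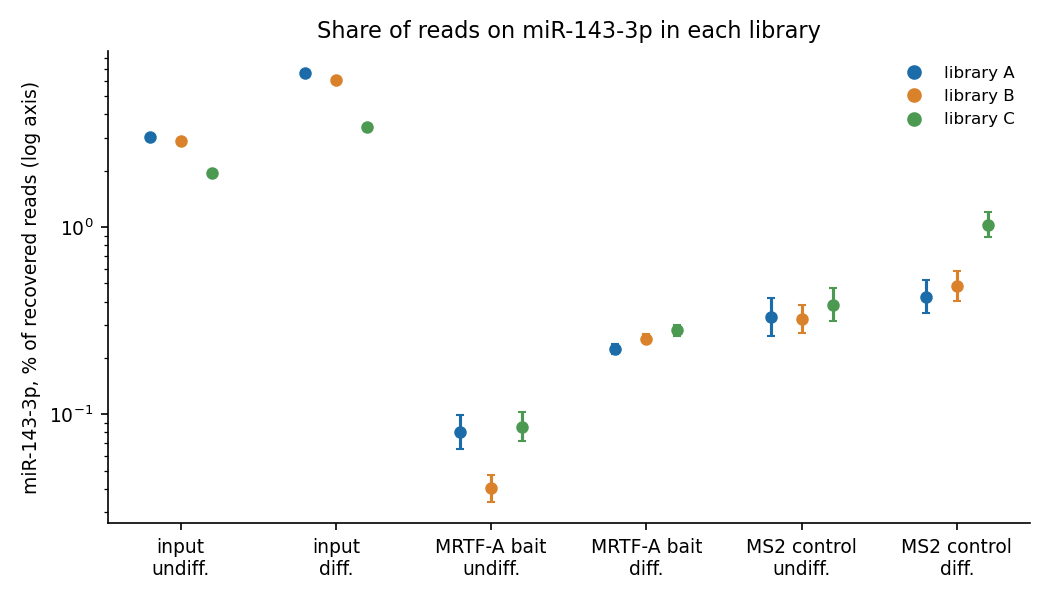
Share of recovered reads on miR-143-3p (percent, log axis) in each of the 18 libraries, with 95% Wilson intervals that cover counting error only. Inputs lie at 1.95 to 6.64%, MS2 eluates at 0.322 to 1.03% and MRTF-A eluates at 0.0403 to 0.281%, with no overlap between the 3 kinds.

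**Figure D4:**
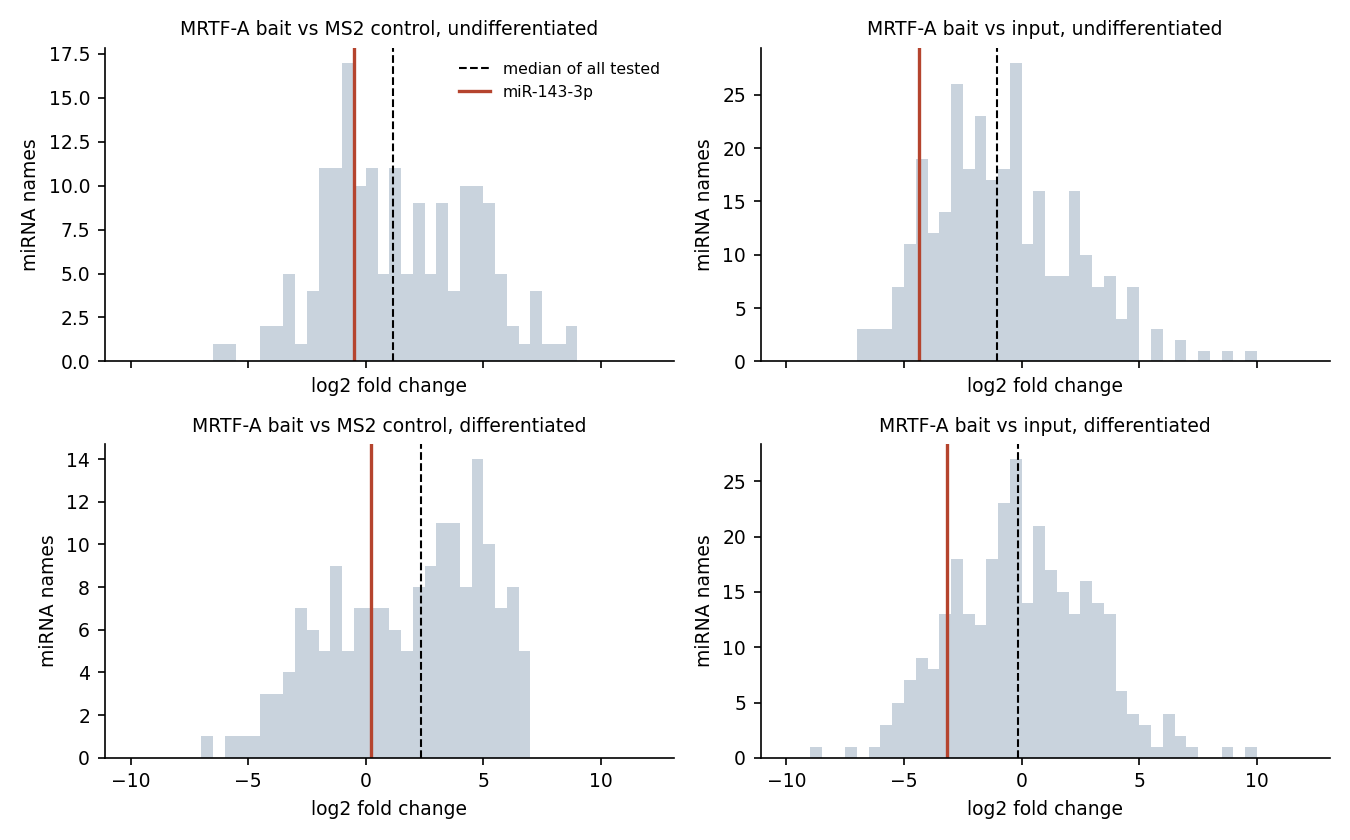
Number of miRNA names by log2 fold change (bins of equal width) for the MRTF-A bait over the MS2 control, left, and over input, right, in undifferentiated (top) and differentiated (bottom) cells. The red line is miR-143-3p, at -0.50 and 0.20 on the left and -4.36 and -3.16 on the right, and it lies left of the dashed median of all tested in each panel.

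The MRTF-A eluate itself held more miR-143-3p after differentiation. The 3 differentiated bait libraries lay above all 3 undifferentiated ones, with a log2 fold change of 1.70 ± 0.25 (limma, adjusted p = 0.000205), where 23.7% of 169 miRNAs were called higher and the median was 0.33. It was higher under all 8 other settings, at 1.12 to 1.93, and its share of reads was 3.67-fold higher. The MS2 control moved the same way by share, 1.86-fold, with no overlap, as did input by share. The test of whether the bait effect differed between the states gave 0.71 ± 0.35 (95% interval -0.06 to 1.48, limma, adjusted p = 0.197), with 13.0% of 169 miRNAs called and a median of 0.14. With control libraries of low and high human-named share it was 0.39 and 1.04, and no setting put it past the threshold.

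**Figure D5:**
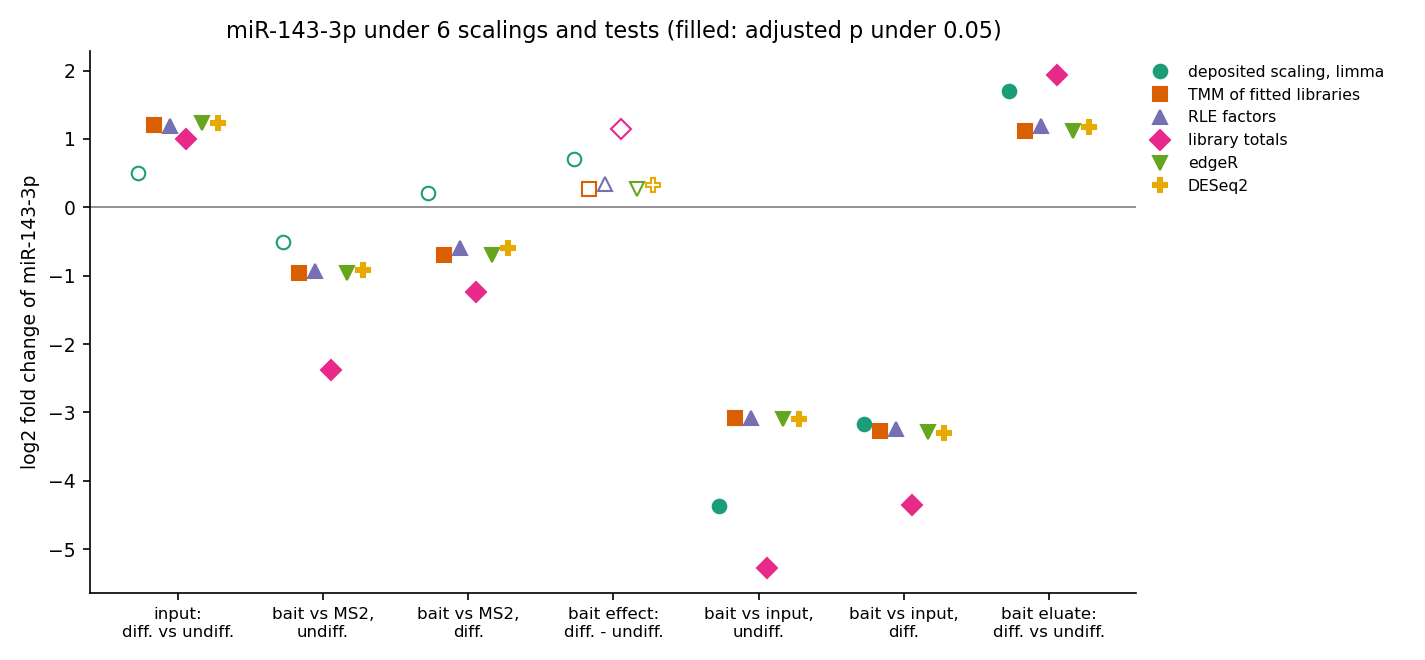
Log2 fold change of miR-143-3p in 7 comparisons under 6 scalings and tests. Filled symbols have an adjusted p under 0.05 and open ones do not. On the deposited scaling the input change and both bait to MS2 values are open, at 0.50, -0.50 and 0.20, while the other 5 are filled for these 3 comparisons.

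By group mean, the order of miR-143-3p in CPM was differentiated input, undifferentiated input, differentiated bait, differentiated control, undifferentiated control and undifferentiated bait. Library ranges overlapped between the inputs, between both eluates of differentiated cells, and between both eluates of undifferentiated cells. By share the control groups moved ahead of the bait groups, and no neighbours in that order overlapped. miR-145a-5p had an order only as far as inputs over eluates in CPM.

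A list of miRNAs linked to SRF, in which the pair and its other arms are included, was set beside the pair. The list of 13 names held the miR-1a and miR-133a arms, which are known targets of SRF and its coactivators in striated muscle, miR-486 and miR-3107, and both arms of the pair. As background, miR-486-5p and miR-3107-5p have 1 mature sequence under 2 names. They are 1 molecule, which the counts and medians below take under both names. In the input, 5 of the 10 names tested were higher and 0 lower, beside 16.0% higher over all tested, with a list median of 1.11 against -0.64. Those 5 were miR-1a-3p, miR-133a-3p, miR-486-5p, miR-486-3p and miR-3107-5p, and they were called under all 9 settings. The list median includes the pair's own arms, at 0.50, 0.49, 0.46 and -0.27. The remaining names tested were at 9.46, 6.48, 2.84, 2.83, 1.72 and 0.39. miR-133a-3p was at 605 ± 552 CPM in undifferentiated and 40632 ± 9089 CPM in differentiated input, and miR-486-5p at 3010 ± 860 and 21047 ± 2735 CPM. miR-1a-3p had 0 reads in undifferentiated and 10859 in differentiated inputs, so it passed the filter only through the group in which it is high. miR-143-5p, at 0.46 ± 0.38 (limma, adjusted p = 0.303), and miR-145a-3p, at 0.49 ± 0.34 (limma, adjusted p = 0.231), missed the threshold as their partner arms did, and passed under 2 and 5 of 9 settings.

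With the bait, miR-1a-3p and the pair moved in opposite directions from input. In differentiated bait eluates miR-1a-3p reached 568026 ± 39253 CPM, the first rank in all 3 libraries, against 7069 ± 610 CPM in the input and 5764 ± 1048 CPM in the control. Its log2 fold change over the control was 6.63 ± 0.70 (limma, adjusted p = 2.82e-06), and over input 6.33 ± 0.61 (limma, adjusted p = 1.44e-07). In differentiated cells 6 of the 7 names tested were higher than the control, beside 57.4% of all tested, and the one that was not was miR-143-3p. The list median was 2.87 against 2.37. Of the 6, miR-1a-3p was called under all 9 settings, miR-133a-5p, miR-486-5p and miR-3107-5p under 8, miR-133a-3p under 7 and miR-486-3p under 3. In undifferentiated cells 2 of 7 were higher, the pair of names miR-486-5p and miR-3107-5p, beside 43.2% of all tested, with a list median of 0.42 against 1.16, and both were called under 8 of 9 settings. Between the bait eluates of the 2 states 7 of 7 were higher after differentiation, beside 23.7% of all tested, with a list median of 3.78 against 0.33. Of the 7, miR-486-3p was called under 7 of 9 settings and the others under all 9. Which names were tested depended in part on the differentiated bait. miR-133a-5p had 0 reads in undifferentiated and 123 in differentiated bait libraries, with 0 and 1 in the control. miR-486-3p had 7 and 271, with 4 and 6 in the control. Such names pass the filter mainly through the group in which they are high, so the 7 of 7 and the 6 of 7 were partly fixed by it. Against input, 2 of the 9 tested were higher in differentiated cells, miR-1a-3p and, under 7 of 9 settings, miR-133a-5p, beside 31.1% higher over all tested. In the same comparison 3 were lower, beside 30.8% lower over all tested. The 3 were miR-143-3p, miR-145a-5p and miR-145a-3p, all from the pair's own hairpins. The remaining arm, miR-143-5p, did not pass the filter for bait against input. Without a filter it was at -0.61 in differentiated and -1.72 in undifferentiated cells and was called in neither. In undifferentiated cells 1 of 9 was higher, miR-1a-3p, on 10 reads against 0 and under 8 of 9 settings, beside 23.3% higher over all tested. In undifferentiated cells 4 were lower, the same 3 and miR-133a-3p, beside 45.2% lower over all tested, and of these miR-145a-3p was called under 7 of 9 settings. These counts are a description beside the background shares, from a list chosen with earlier results of these data known.

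The miRNAs most alike in pattern were taken by Pearson's r of log2(CPM + 10) over the 18 libraries, among 368 names. All points share library kind and depth, so r is a description of how a name falls from input to eluate. For miR-143-3p they were miR-22-3p (0.955), miR-181c-5p (0.948), miR-23a-3p (0.948), miR-6239 (0.944) and miR-30d-5p (0.943). For miR-145a-5p they were miR-574-3p (0.986), miR-30b-5p (0.969), miR-21c (0.959), miR-30d-5p (0.943) and miR-30e-5p (0.939). The pair had an r of 0.901 with each other, which put each at place 17 or 16 in the other's order. miR-22-3p had CPM means of 29067 and 55313 in undifferentiated and differentiated input and 1591 and 12416 in the bait eluates. miR-574-3p had 172 and 86.2 CPM in the inputs and 0 and 1.71 CPM in the bait eluates.

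The mature sequences below, from RefSeq with build GRCm38.p6, are those of 7 of these 9 names, shown to compare their seeds. The other 2 are miR-30b-5p and miR-30d-5p. Capitals mark the seed, bases 2 to 8 from the 5′ end.
miR-22-3p: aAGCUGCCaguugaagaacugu
miR-181c-5p: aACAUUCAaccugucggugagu
miR-23a-3p: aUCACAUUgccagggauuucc
miR-6239: uAGCGUUGgaucacucggug
miR-574-3p: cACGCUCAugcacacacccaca
miR-21c: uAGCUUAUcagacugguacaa
miR-30e-5p: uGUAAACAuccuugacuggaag
The 7 printed have 7 different seeds. As background, miR-30b-5p, miR-30d-5p and miR-30e-5p belong to the miR-30 family, and members of a miRNA family share a seed, so the 9 names are not of 9 families.

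Endothelial and blood markers were near 0 in the inputs in which the pair was found. Of 6 endothelial names, all of miR-126, 4 were in the table, with 2 reads in all undifferentiated and 5 in all differentiated inputs, 0 in bait eluates, and 2 and 0 in the controls. The names absent were miR-126-3p and miR-126-5p, with miR-126a-3p and miR-126a-5p listed. Of 9 blood and serum names, such as miR-451a and miR-223-3p, 7 were in the table, with 4 and 6 input reads, 0 bait reads, and 2 and 0 control reads. Absent here were miR-142a-3p and miR-142a-5p, with miR-142-3p and miR-142-5p listed. The 5 mesenchymal names were miR-21a-5p, miR-22-3p, miR-214-3p and both arms of miR-199a, and summed to 377117 to 807492 CPM in undifferentiated and 153658 to 210786 CPM in differentiated input, with none at 0. Most of this sum was miR-21a-5p, at a mean of 501978 ± 224879 and 126893 ± 20411 CPM. In the input miR-22-3p was higher after differentiation (log2 fold change 0.94 ± 0.33, limma, adjusted p = 0.0257), miR-21a-5p and miR-214-3p were lower, and neither miR-199a arm passed. The 6 skeletal muscle names summed to 431 to 3441 CPM in undifferentiated and 48696 to 77883 CPM in differentiated input. Smooth muscle has no marker here apart from the pair itself.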

How the data were processed

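The deposited table holds, per the file headers, a normalised signal per miRNA name and library, in CPM, made by the authors. The submitters' processing notes name edgeR 3.18.1, featureCounts 1.4.6, Bowtie2 2.0.13 and cutadapt 1.4.2, with the build GRCm38. Settings, strand and multimapping: not given in the sources used here. All log2 fold changes, p-values and FDR in the authors' deposited table are theirs. Its fold changes have no stated base, and base 2 was read from their size.

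Whole reads were recovered from the steps of the values (100% within 0.01 read). A TMM factor over the 18 libraries matched the deposited one within 1.33e-15. The main test was limma 3.58.1 (R 4.3.3, trend) on log2(CPM + 10), after filterByExpr on recovered reads, with Benjamini-Hochberg adjustment and a threshold of 0.05. Inputs (6 libraries), eluates (12) and all 18, for bait against input, were fitted separately. Alternatives were pseudocounts of 1 and 50, TMM factors of the fitted libraries, RLE factors, library totals, edgeR 4.0.16, DESeq2 1.42.0, no filter, and leaving out each library. The edgeR fits took TMM factors of the fitted libraries and DESeq2 its own size factors, so neither used the deposited scaling. Fits were tested on simulated data that took the deposited effective library sizes as true, so that test cannot judge the scaling. Shares have Wilson intervals, and 3 reads are the upper limit of a count of 0. Within groups no library repeats another: chi-square over its degrees of freedom was at least 3.9 in all 18 pairs. Libraries of different groups were not compared in this way.

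The named miRNAs are both members, their other arms, miR-145b, the SRF-linked list, the 5 most alike by r among names with a mean of at least 50 CPM in some group, and 2 neighbours above and below in each input. The members and lists were chosen with earlier results of these data known. Other steps ran in Python 3.11.15 (matplotlib 3.10.9, scipy 1.17.1, pandas 2.3.3, numpy 2.4.6).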

Additional observations from a re-analysis of the deposited data

How the results depend on the processing

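Of 152 values of the pair under other settings, over 10 results, 131 kept their direction and side of the threshold, 11 passed it newly with the same sign and 10 changed sign, of which 5 also passed it, so 16 passed newly; the cause was not tested. In the input, miR-143-3p was 1.20 with TMM factors of the fitted libraries, 1.01 with library totals, 1.20 with RLE factors, 1.24 with edgeR and 1.24 with DESeq2, all past the threshold, and 0.28 to 0.88 with 1 library left out. miR-145a-5p was 0.40, 0.21, 0.39, 0.38 and 0.38 in that order, none past it. Bait against control, miR-143-3p was -0.96, -2.39, -0.93, -0.97 and -0.92 in undifferentiated and -0.70, -1.24, -0.59, -0.69 and -0.59 in differentiated cells, all past it. The kinds of MS2 library were an alternative chosen after seeing the data.

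Over all miRNAs, calls as higher and lower moved with scaling. In the input 50 and 145 became 92 and 92 with TMM factors of the inputs. Bait over control went from 73 and 29 to 55 and 63 with library totals in undifferentiated and from 97 and 37 to 73 and 49 in differentiated cells. Bait over input went from 71 and 138 to 112 and 99 with DESeq2 in undifferentiated and from 95 and 94 to 69 and 125 with library totals in differentiated cells. The bait eluate between states went from 40 and 25 to 29 and 39, and the bait effect between states from 14 and 8 to 9 and 18, with TMM factors of the eluates. The count of the last, 22, was 11 and 38 at pseudocounts 1 and 50, 14 with library totals, 3 with edgeR and 2 without a filter. Bait over input in differentiated cells was 189, and 307 without a filter. Depth limits miR-145a-5p in the MS2 control most. No paired analysis was possible because the columns carry suffixes that no label ties to the titles' replicate numbers or to a shared culture.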
